A study of Homo sapiens with 7 samples.

Results

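Complement is a set of plasma and cell-surface proteins that tag and lyse targets by a chain of protease steps, and 9 of its genes were followed here in senescent lung epithelial cells. They were chosen by name from the deposited table, and all 9 were found among its 14535 gene symbols: CFB, C1S, C1R, C3, CFI, SERPING1, CD55, CD46 and CD59. The choice was made with the difference between doxorubicin and stretch known, so for them that difference is a description, and any call on it is counted only for comparison with all genes and supports nothing. The cells were A549, a line of malignant lung epithelium. For 24 h they received either 100 nM doxorubicin, a drug that breaks DNA through topoisomerase II (3 libraries), or cyclic stretch to 15% elongation at a rate of 15 cycles per min (4 libraries). Then, 6 days later, both groups were stained for β-galactosidase, a marker of senescent cells, and the stained cells were sorted for RNA. Untreated cells were not analysed here, so a gene higher in one group may equally be lower in the other. Whether replicates were separate cultures is not stated in the labels, so p-values cover the spread among these libraries, and that spread may be technical.

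The classical pathway begins when the C1 complex binds a target, whereupon the protease C1r activates C1s, which cleaves the next components. In the alternative pathway factor B joins C3b to form the enzyme that cleaves more C3, a loop that amplifies itself. Host cells restrain both with soluble regulators, such as factor I and C1 inhibitor, and with the membrane proteins CD55, CD46 and CD59. Liver makes most plasma complement, but epithelial cells of the lung make several components themselves, and interferons and inflammatory cytokines are known inducers of CFB, C1R, C1S and SERPING1. In bulk RNA, fewer cells of a type and less RNA per cell cannot be told apart.

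The promoter of CFB, the member with the largest difference, is shown because it holds matches to motifs of interferon signalling, beside that of C1R, whose groups overlapped. Each window runs from 250 bases before to 50 bases after a RefSeq start site on GRCh38.p14, with motif matches in capitals. C1R has 2 such windows, and the one with a match to an interferon motif is shown. The CFB window lies at chr6:31945845-31946144 on the plus strand and that of C1R at chr12:7091844-7092143 on the minus strand.
CFB: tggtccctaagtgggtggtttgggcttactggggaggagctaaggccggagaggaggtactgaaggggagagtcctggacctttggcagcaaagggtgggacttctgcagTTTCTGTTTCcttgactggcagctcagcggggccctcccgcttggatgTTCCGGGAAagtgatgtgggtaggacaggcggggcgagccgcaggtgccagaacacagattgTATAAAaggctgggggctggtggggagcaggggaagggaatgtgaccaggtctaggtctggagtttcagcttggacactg
C1R: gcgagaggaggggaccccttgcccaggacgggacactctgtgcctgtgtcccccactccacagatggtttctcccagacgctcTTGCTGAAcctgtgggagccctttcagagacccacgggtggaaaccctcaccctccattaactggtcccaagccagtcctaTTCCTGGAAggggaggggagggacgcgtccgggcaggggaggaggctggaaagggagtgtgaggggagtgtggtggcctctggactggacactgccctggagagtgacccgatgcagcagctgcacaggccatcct
The first capitals in the CFB window match the interferon-stimulated response element (searched as GAAA, any 2 bases and GAAA again, on both strands) and begin 140 bases before the start site. The second match the gamma-activated site (searched as TTCNNNGAA, which reads the same on both strands), from 92 bases before it. The third are a TATA box (searched as TATAAA on the given strand), from 30 bases before it. In the C1R window the capitals match the C/EBP motif (searched as TTGCNNAA on both strands) and the gamma-activated site, from 167 and 86 bases before the start. No searched motif overlapped another in these windows. Of 34796 promoters of the same length, 3.57% held the response element, 7.67% the gamma-activated site, 10.5% the C/EBP motif and 7.37% the TATA box. The set of promoters used here held windows for 6 members (CFB, C1R, CFI, CD55, CD46 and CD59). It held none for C1S, C3 and SERPING1, so no motif was searched for them. The NF-kB motif, searched on both strands, was in 5.91% of all promoters and in none of those of the 6 members. Among these 6, the response element was found for CFB, the gamma-activated site for CFB, C1R and CD59, and the C/EBP motif for C1R and CD59. A match in any window of a gene was counted, and C1R, CD46 and CD59 have several windows, some overlapping. The percentages are per window, so the counts of members cannot be set against them. A match is a stretch of letters and was not tested as a binding site.

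Total counts ran from 2611739 to 4644250 in doxorubicin and from 5636386 to 7419778 in stretch, and levels are given in CPM, counts relative to the library size after scaling by TMM (trimmed mean of M-values). A single gene, EIF4A2, took 10.8% to 30.6% of each doxorubicin library and at most 2.87% of a stretch library. Across genes, log-CPM correlated at 0.754 to 0.884 within doxorubicin and at 0.939 to 0.978 within stretch, with doxorubicin library 2 the shallowest and the farthest apart. One count was worth 0.865 CPM in doxorubicin library 2 and 0.107 to 0.134 CPM in stretch, so weak members were read more coarsely after doxorubicin. Each gene was amplified as a short stretch whose position is not given in the sources used here, so levels are compared between libraries and never between genes. Of the 9 epithelial markers listed in the table, KRT18 passed the test, higher in doxorubicin, and their summed level, made up mostly of KRT7, KRT8 and KRT18, was 3461 to 6840 CPM in doxorubicin and 2151 to 2719 CPM in stretch. EPCAM, an epithelial adhesion molecule, lay the other way, at means of 3.26 CPM in doxorubicin and 12.7 CPM in stretch with no overlap, and did not pass (edgeR adjusted p = 0.0574). All 10 genes listed as typical of A549 were in the table, with sums of 6334 to 8639 CPM in doxorubicin and 7994 to 9879 CPM in stretch, and INSL4 passed, higher in stretch (log2 fold change 2.20, edgeR adjusted p = 0.0336). The table used here lists 5 of 11 myeloid markers, without PTPRC, CSF1R or the C1Q genes, and their sum was 101.5 to 139.8 CPM in doxorubicin and 57.9 to 61.6 CPM in stretch. CD68, a lysosomal glycoprotein, made most of that difference and passed (means of 75.6 CPM in doxorubicin and 18.6 CPM in stretch), and its part in the complement values was not tested. The means of CD14 and LYZ were near each other in the groups, at 10.7 and 27.7 CPM in doxorubicin and 10.4 and 29.6 CPM in stretch. TYROBP and FCER1G were at most 2.59 CPM in any library. The summed level of the 7 listed of 9 fibroblast markers was 19.3 to 45.0 CPM in doxorubicin and 15.6 to 16.8 CPM in stretch, and the level of the 1 listed endothelial and of the 1 listed lymphocyte marker was at most 2.59 CPM in any library.

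CFB, C1S and C3, which are components of the cascade, stood higher in every doxorubicin library than in any stretch library, while the groups overlapped for C1R, also a component. CFB (chromosome 6, 31945650 to 31952084, GENCODE 29 on GRCh38) codes factor B, the protease of the alternative pathway. In doxorubicin libraries 1, 2 and 3 its level was 85.4, 135.8 and 49.0 CPM, against 8.14, 8.02, 11.1 and 5.16 CPM in stretch libraries 4, 5, 6 and 7. The lowest doxorubicin library was thus well above the highest stretch library, while the doxorubicin libraries differed widely among themselves. The means were 90.0 ± 43.6 CPM (SD, n = 3) and 8.12 ± 2.44 CPM (n = 4), a difference of 11.0-fold (log2 fold change, stretch minus doxorubicin, -3.46, SE 0.41). Doxorubicin library 3, the most like the stretch libraries, was the lowest of its group in CFB. With that library alone for doxorubicin the log2 fold change was -2.57, a fit that holds no spread among doxorubicin libraries.

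C1S (chromosome 12, 6988259 to 7071032) codes the protease of the C1 complex that cleaves C4 and C2. Its levels were 174.7, 146.1 and 123.1 CPM in doxorubicin libraries 1, 2 and 3, and 34.3, 50.3, 29.8 and 44.0 CPM in stretch libraries 4, 5, 6 and 7. The groups were far apart and each was fairly tight, at 148 ± 25.9 CPM (n = 3) and 39.6 ± 9.25 CPM (n = 4), a 3.73-fold difference (log2 fold change -1.90, SE 0.30).

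C3 (chromosome 19, 6677704 to 6730562) codes the central component on which all pathways converge. It stood at 33.0, 45.8 and 38.6 CPM in doxorubicin and at 13.2, 14.0, 13.3 and 21.8 CPM in stretch, library 7 being the highest of its group. The groups did not overlap, at 39.1 ± 6.45 CPM (n = 3) and 15.6 ± 4.18 CPM (n = 4), 2.49-fold apart (log2 fold change -1.32, SE 0.31). Of the 7 tested members C3 moved least with the choice of doxorubicin libraries, with log2 fold changes of -1.42 to -1.19 when any 1 was left out and -1.29 for library 3 alone.

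C1R and CFI, both proteases, overlapped between the groups and followed one another across the doxorubicin libraries, but less closely across the stretch libraries. C1R (chromosome 12, 7080199 to 7092607) codes the protease that activates C1s. It stood at 25.8, 6.05 and 12.1 CPM in doxorubicin and at 6.54, 11.9, 9.51 and 8.82 CPM in stretch. Doxorubicin library 1 was the highest of all 7 and doxorubicin library 2 the lowest, so that the stretch range lay inside that of doxorubicin. CFI (chromosome 4, 109740694 to 109802179) codes factor I, which inactivates C3b and C4b, and stood at 25.02, 4.32 and 11.3 CPM in doxorubicin and at 5.34, 8.67, 9.51 and 9.36 CPM in stretch. Its order was the same as that of C1R in doxorubicin, and its stretch range again lay inside the doxorubicin range. In stretch the order differed, with library 5 highest for C1R and library 6 highest for CFI. In doxorubicin library 2 these levels rest on 7 counts of C1R and 5 of CFI. The log2 fold changes were -0.71 (SE 0.44) for C1R and -0.77 (SE 0.48) for CFI, and without doxorubicin library 1 they were -0.06 and -0.05.

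**Figure D1:**
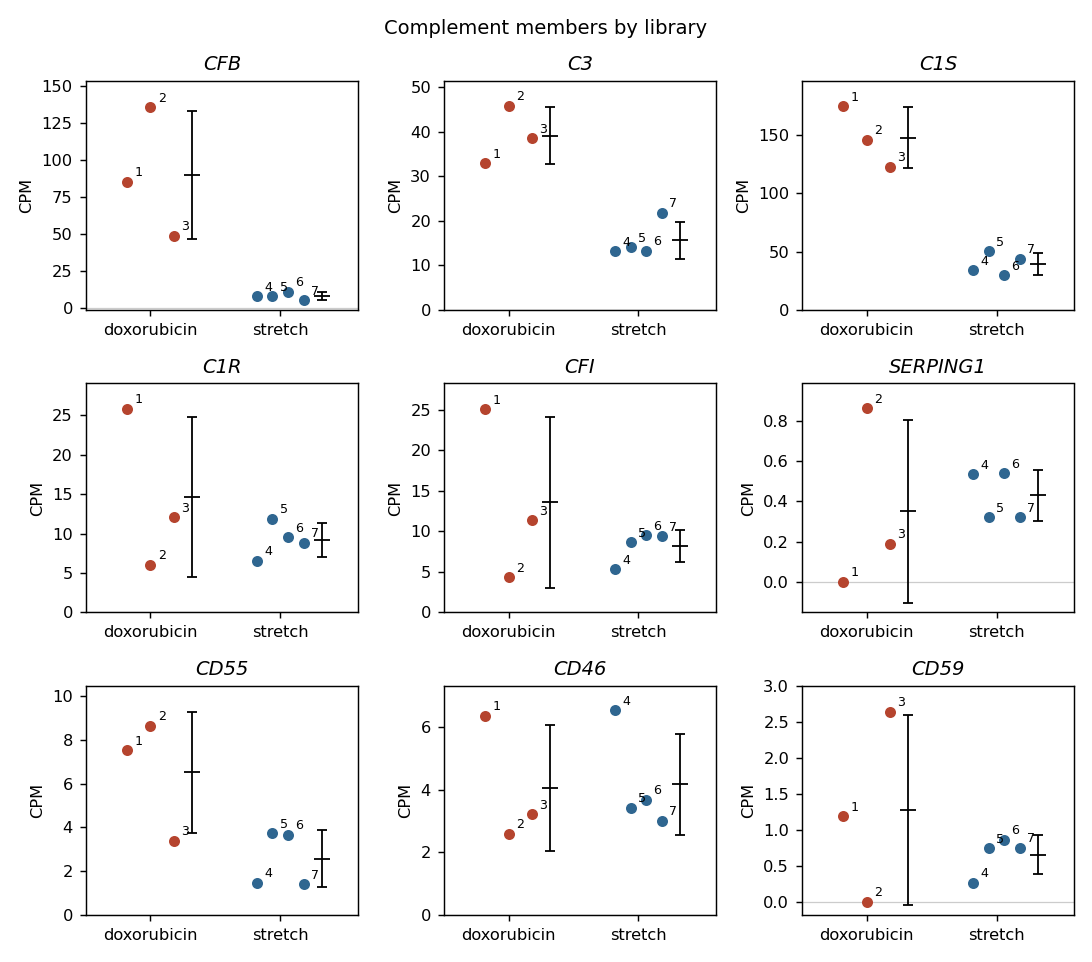
Levels of the 9 members in CPM (vertical axes, linear) in each doxorubicin (red) and stretch (blue) library, numbered by replicate, with the mean and SD of each group beside the points. CFB, C1S and C3 lie higher in all 3 doxorubicin libraries than in the 4 stretch libraries, and the groups overlap for the other 6 members.

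The membrane regulators were weakly counted. CD55 (chromosome 1, 207321376 to 207386804) codes decay-accelerating factor, which takes apart the enzymes that cleave C3. It stood at 7.55, 8.65 and 3.402 CPM in doxorubicin and at 1.47, 3.74, 3.68 and 1.399 CPM in stretch. Doxorubicin library 3 fell among the stretch libraries and the other 2 were higher, giving 6.53 ± 2.77 CPM (n = 3) and 2.57 ± 1.32 CPM (n = 4), with a log2 fold change of -1.24 (SE 0.54), or -0.38 with doxorubicin library 3 alone. CD46 (chromosome 1, 207752057 to 207795513) codes membrane cofactor protein, with which factor I inactivates C3b. It stood at 6.35, 2.59 and 3.21 CPM in doxorubicin and at 6.54, 3.42, 3.68 and 3.01 CPM in stretch, and the means were 4.05 ± 2.02 and 4.16 ± 1.61 CPM. One library of each group was high, the ranges largely coincided, and the sign of the difference changed with the setting, from -0.77 to 0.73 on the log2 scale. CD59 (chromosome 11, 33703010 to 33736491) codes the inhibitor of the membrane attack complex. It had 3, 0 and 14 counts in doxorubicin and 2, 7, 8 and 7 counts in stretch, and the 0 in doxorubicin library 2 allows a level of up to 2.59 CPM, by counting error alone. That limit is close to the highest level seen, 2.65 CPM in doxorubicin library 3, so doxorubicin library 2 cannot show a difference in CD59. With library 3 alone for doxorubicin, CD59 lay at -1.99 on the log2 scale relative to the median of all genes. That value rests on few counts, and no difference is read from it.

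SERPING1 (chromosome 11, 57597387 to 57614853), which codes C1 inhibitor, the serpin that blocks C1r and C1s, had 0, 1 and 1 counts in doxorubicin and 4, 3, 5 and 3 counts in stretch. Its level was at most 0.865 CPM in any library, and the 0 in doxorubicin library 1 allows up to 1.19 CPM. CD59 and SERPING1 fell below the filter on low counts, which left 7 of the 9 members in the fit.

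By the rule applied to all genes, an adjusted p under 0.05 (edgeR's quasi-likelihood test, Benjamini-Hochberg over 11230 genes), CFB and C1S were called, 2 of 7 members, both higher in doxorubicin. Of all tested genes 2.32% were called, 1.97% toward doxorubicin and 0.356% toward stretch. The groups did not overlap for 3 members, all with doxorubicin above, where 21.4% of all tested genes did not overlap and 9.88% had doxorubicin above. Because members were chosen with this contrast known, these counts are a description and nothing is read from them. The same holds for the fit with doxorubicin represented by library 3 alone, in which all of the spread comes from the stretch libraries. There the members called were CFB and C1S, and 0.802% of all genes were called. DESeq2 called CFB, C1S and C3, where it called 10% of all genes. By edgeR, C1S was not called without doxorubicin library 1 or without any 1 of the stretch libraries. In those fits CFB was the only member called, and 12 to 40 of all genes were called. Without doxorubicin library 3, C3 and CD55 were called too, where 3736 of 11618 genes were called.

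**Figure D2:**
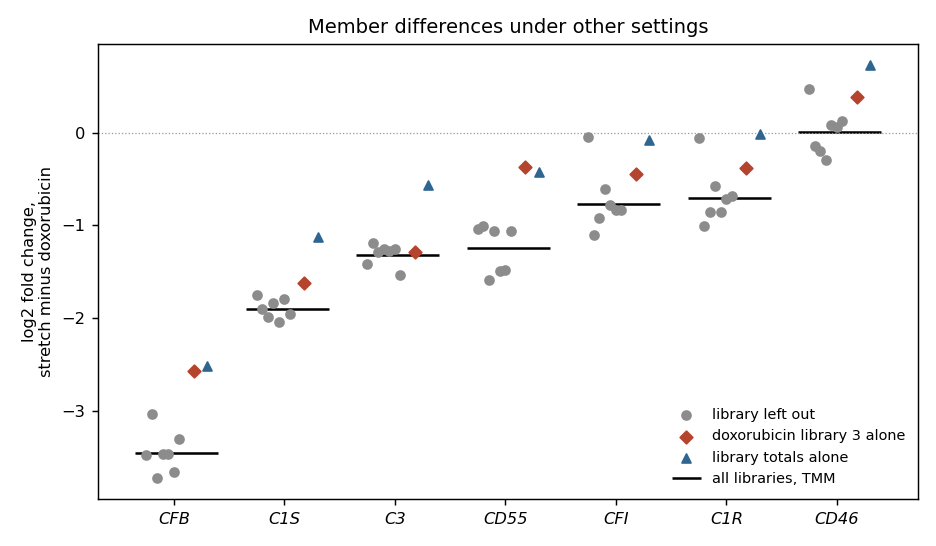
Log2 fold change of the 7 tested members, stretch minus doxorubicin (vertical axis), with all libraries (black lines), with each of the 7 libraries left out (grey circles), with doxorubicin library 3 alone (red diamonds) and with library totals in place of TMM factors (blue triangles). CFB, C1S and C3 stay on the doxorubicin side, while points of CD46 lie on both sides of 0.

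Ratios of counts within a library do not depend on how libraries are scaled, and some were taken after the values were seen. For each count of C1R there were 6.77, 24.1 and 10.2 counts of C1S in doxorubicin libraries 1, 2 and 3, and 3.14 to 5.24 in the stretch libraries. The ratio was higher in all 3 doxorubicin libraries, and its value in library 2 rests on 7 counts of C1R. Because C1S was chosen with this contrast known, the ratio is a description. For each count of C3 there were 2.59, 2.96 and 1.27 counts of CFB in doxorubicin and 0.236 to 0.837 in stretch. Both ratios were apart between the groups, and how often that holds for pairs drawn from all genes was not examined. By contrast there were 1.03 to 1.4 counts of C1R per count of CFI in doxorubicin and 0.943 to 1.37 in stretch, nearly the same range.

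Across the 7 libraries the log-CPM of C1R and CFI had a Pearson correlation of 0.967, and CFI was the gene most like C1R, and C1R the gene most like CFI, among 7500 candidates with a mean of at least 10 CPM. C1R and C1S, which lie 9.2 kb apart, had a correlation of 0.45. CFB and C1S correlated at 0.918, CFB and C3 at 0.866, and C1S and C3 at 0.918. These points share libraries and depth and fall into separate groups for CFB, C1S and C3, so the values describe these libraries only. The genes most like CFB were PDGFA, a growth factor (0.997), ITPKC, an inositol trisphosphate kinase (0.993), and TANC2 (0.992). Those most like C1S were CCNE1, which codes cyclin E1 (0.990), OAS3, an interferon-induced antiviral enzyme (0.980), and ZFAND4 (0.977). C3 was most like WDFY1, RBMS2P1 and USP48, with correlations of 0.983 to 0.988. CFI was followed by SEC61A2 and SPP1, and C1R by RANBP2 and RARRES1, all between 0.950 and 0.966. CD55 was most like CIB1, SLC35F5 and COQ4, at 0.964 to 0.973, and CD46 most like FOSB, MAP1LC3B2 and POLR3D, at 0.919 to 0.969. The level of CD59 and that of SERPING1 rest on so few counts that no like genes are named for them.

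**Figure D3:**
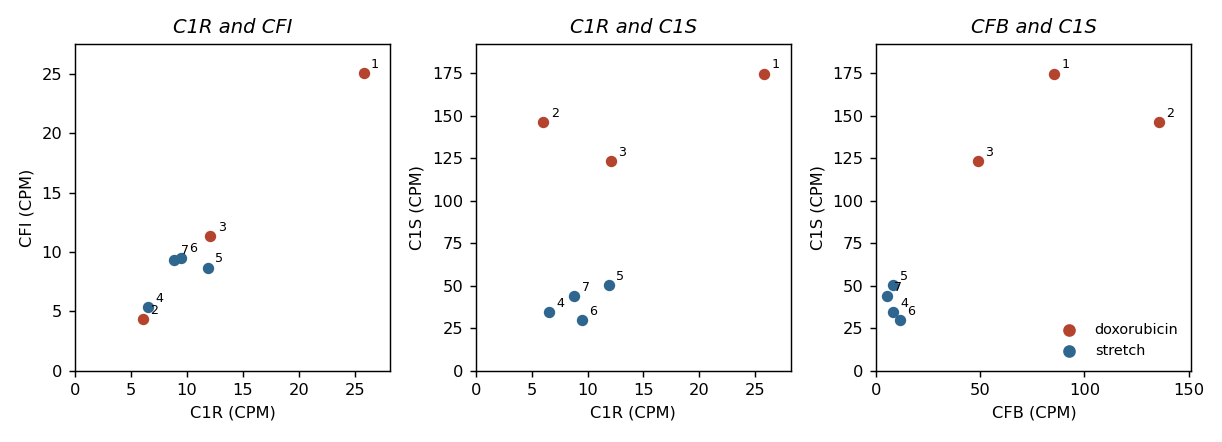
Levels in CPM of C1R and CFI, C1R and C1S, and CFB and C1S (linear axes) in the 7 libraries, numbered by replicate, doxorubicin in red and stretch in blue. C1R and CFI lie roughly along a line through both groups, whereas C1S and CFB separate the 3 doxorubicin libraries from the 4 stretch libraries.

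Genes beside the members on the chromosome were examined next. The 2 nearest tested genes on each side gave 28 neighbours that are not members. None passed edgeR's quasi-likelihood test. An unadjusted p under 0.05 was found for 6 of the 28, near the 23.2% of all tested genes. Of the neighbours 15 lay on the doxorubicin side and 13 on the stretch side, and their median log2 fold change was -0.03, against 0.02 for all tested genes. The annotated span of CFB begins at 31945650, just inside the end of that of C2, at 31945672 on the same strand. It ends just before that of NELFE. The overlap with C2 is thus a very short stretch. Where the amplified piece of each gene lies is not given in the sources used here, and sharing of reads between overlapping genes was not tested. C2, the classical-pathway counterpart of factor B, was weakly counted, with 2, 2 and 6 counts in doxorubicin and 10, 38, 29 and 37 in stretch. Its means were 1.22 ± 0.47 CPM in doxorubicin (n = 3) and 3.13 ± 1.27 CPM in stretch (n = 4), with a log2 fold change of 1.46 (SE 0.61). NELFE had a log2 fold change of 0.55 (SE 0.34). For C2 and NELFE the groups overlapped and neither passed (edgeR adjusted p = 0.180 and 0.352). Both lay on the side opposite to CFB. C1RL, a C1r-like protease gene whose span overlaps that of C1R, stood at 48.0, 54.5 and 12.5 CPM in doxorubicin and at 16.3 to 22.4 CPM in stretch. Doxorubicin library 3 was thus below all stretch libraries and the other 2 above them, and the log2 fold change was -0.92 with all libraries and 0.68 with doxorubicin library 3 alone. CD55 and CD46 lie in the cluster of complement regulators on chromosome 1, where C4BPA, the chain of the C4b-binding protein, had a log2 fold change of -1.17 (SE 0.47, edgeR adjusted p = 0.167), and -0.06 with doxorubicin library 3 alone. Near SERPING1, UBE2L6, a conjugating enzyme of ISG15, stood at 31.9 ± 1.17 CPM against 13.3 ± 4.05 CPM with no overlap, and did not pass (edgeR adjusted p = 0.0678).

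No further complement gene passed the test. Of 56 further complement genes, 30 were listed in the table and 17 tested, and by edgeR none passed in either direction, with 6 at an unadjusted p under 0.05, where 23.2% of all tested genes had one. DESeq2 tested 25 of them and called 2, both higher in stretch, where it called 10% of all genes, and limma-voom called 0, against 1.66% of all genes. Their median log2 fold change was 0.23 with 7 on the doxorubicin side and 10 on the stretch side, against a median of 0.02 for all tested genes. The groups did not overlap for 3 of the 17, C5 and C1QBP among them, all with stretch above, which was so in 11.5% of all tested genes. C5, the component whose cleavage starts the lytic pathway, stood at 58.0, 14.7 and 52.7 CPM in doxorubicin and at 65.2, 131.1, 129.9 and 111.3 CPM in stretch. Doxorubicin libraries 1 and 3 came close to stretch library 4, and the log2 fold change was 1.36 (SE 0.46, edgeR adjusted p = 0.119). C1QBP, a mitochondrial protein that also binds C1q, stood at 267 ± 24.5 against 414 ± 31.0 CPM (log2 fold change 0.63, edgeR adjusted p = 0.199).

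Among the inhibitors that were not members, CLU, which codes clusterin, an inhibitor of the lytic complex, stood at 592.1, 757.4 and 260.7 CPM in doxorubicin and at 288.9 to 395.9 CPM in stretch. Library 3 again fell below the stretch libraries, and the log2 fold change of CLU was -0.65 with all libraries and 0.41 with library 3 alone. PROS1, which codes the protein S that circulates with C4b-binding protein, had a log2 fold change of 1.10 (SE 0.40, edgeR adjusted p = 0.139). CFD, the protease that activates factor B, stood at 38.6 ± 17.9 CPM (n = 3) and 34.99 ± 7.09 CPM (n = 4), a difference smaller than the spread within doxorubicin. CFP, which codes properdin, had a log2 fold change of -0.97 (SE 0.64). C4A and C4B, near-identical genes, were each at most 3.96 CPM, and a row of C4A held the same values as that of C4B, so their counts are uncertain. The component C6, and CPB2 and COLEC12, were at 0 counts in all 3 doxorubicin libraries and at most 6 in stretch.

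**Figure D4:**
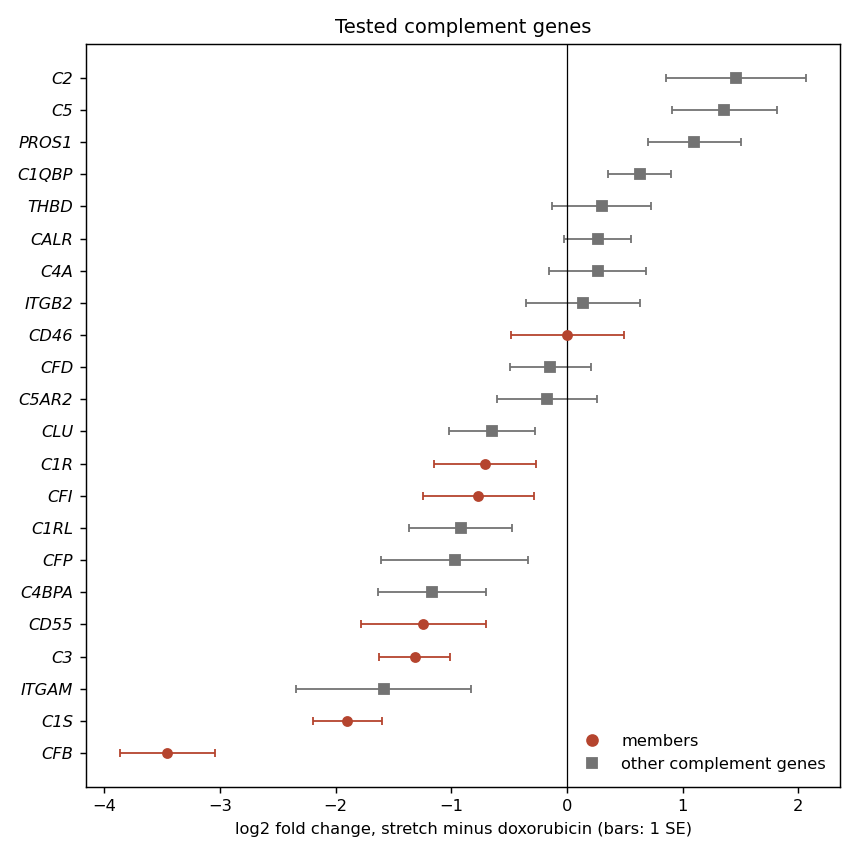
Log2 fold change, stretch minus doxorubicin (horizontal axis, bars 1 SE), of the 7 tested members (red circles) and 15 of the 17 other tested complement genes (grey squares), in order of value. CFB, at -3.46, lies farthest toward doxorubicin, and C2 and C5, at 1.46 and 1.36, farthest toward stretch.

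Of 25 tested genes for receptors and transcription factors known to induce complement transcription, IRF7 and RELB passed (2 genes), both toward doxorubicin. Of all tested genes 1.97% passed in that direction. This list and the interferon-stimulated list below were chosen with earlier results of these data known, so their counts and p-values are a description. The median over the list was -0.19 on the log2 scale, against 0.02 for all tested genes. IRF7, a transcription factor that amplifies interferon responses, stood at 69.1, 61.4 and 17.96 CPM in doxorubicin and at 0.668 to 1.51 CPM in stretch (log2 fold change -5.36, SE 0.53, edgeR adjusted p = 0.00181), and passed in each of 17 alternatives. RELB, an NF-kB subunit, stood at 38.1, 95.1 and 48.6 CPM against 16.2 to 21.9 CPM (log2 fold change -1.68, SE 0.35, edgeR adjusted p = 0.0361). It passed in 10 of 17 alternatives. Those in which it did not pass included, among others, the fits without doxorubicin library 1 (edgeR adjusted p = 0.0849) and without stretch library 4, 5, 6 or 7 (edgeR adjusted p = 0.0785, 0.156, 0.163 and 0.169). STAT2, a signal transducer of the interferon receptors, was higher in every doxorubicin library than in any stretch library, at 61.7 ± 18.002 against 25.5 ± 3.25 CPM, and did not pass (edgeR adjusted p = 0.0521). IRF1, an interferon-induced activator, was 48.4 to 70.0 CPM in doxorubicin and 28.2 to 44.1 CPM in stretch, with a log2 fold change of -0.62 that turned to 0.17 with library totals alone. TNFRSF1A, the main TNF receptor, lay the other way, at 15.9, 8.65 and 53.3 CPM in doxorubicin and 73.7 to 138.5 CPM in stretch (log2 fold change 1.98, SE 0.54, edgeR adjusted p = 0.0736). In the interferon-stimulated list 17 of 24 tested genes passed, all higher in doxorubicin, where 1.97% of all tested genes passed in that direction. Some of its called genes were barely counted in stretch, and so entered the fit through the doxorubicin libraries. The median log2 fold change of the list was -2.70. CFB, at -3.46, lay beyond that median and C1S, at -1.90, short of it, and a link between them and this list was not tested.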

How the data were processed

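Per the labels' protocols, Trizol RNA entered an Ion AmpliSeq human transcriptome kit, in which gene-specific primers amplify a short piece per gene. Reads carry no molecular identifiers, so limits from counts cover counting error only. The authors deposited estimated counts per gene symbol, as whole numbers without scaling. GRCh38, Salmon 1.9 and fastp 0.20.1 are named, per the submitters' processing notes, with no role or order. Of 14647 rows, those sharing a symbol (64 symbols) were summed and Metazoa_SRP, at most 0.00861% of a library, was left out.

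Counts were tested with R 4.3.3 and edgeR 4.0.16 (filterByExpr, TMM factors of 0.443 to 1.33, robust glmQLFit, glmQLFTest) for stretch minus doxorubicin, and p-values were adjusted by Benjamini-Hochberg. Dividing the absolute log2 fold change by the root of F gave its standard error. Log-CPM used a prior count of 2. A level of 3 counts was the limit that a count of 0 allows. The procedure was tested on simulated counts. No libraries agreed within sampling noise (chi-square per degree of freedom at least 8.02). Groups and replicate numbers came from the titles. Coordinates came from GENCODE 29, which gave a single locus for 94.8% of tested genes, and promoters from RefSeq.

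The members, lists and ratios were chosen with earlier results of these data known. Named genes were all members, the called or lowest-p genes of each list, the 2 nearest tested genes on each side, of which those described were picked after their values were seen, and the 3 most correlated genes. CFD, CLU, IRF1, C4A, C4B, C6, CPB2, COLEC12, CD68, CD14, LYZ, TYROBP and FCER1G were added after their values were seen. Alternatives were other scaling factors and filters, DESeq2 1.42.0, limma 3.58.1 (voom), left-out libraries, and the highest row for repeated symbols. Results of some genes are not reported here, although counts over a list include them.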

Additional observations from a re-analysis of the deposited data

Results flagged for a closer look

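In the stretch group of 4 libraries, 1 library stood far from the other 3 for 3 of the 44 genes examined, by Dixon's criterion, which flags about 1 in 20 groups by chance. C3 was 21.8 CPM in stretch library 7 and 13.2 to 14.0 CPM in the other 3, and without library 7 its log2 fold change was -1.53. FGG, the fibrinogen gamma chain, was 6.94 CPM in stretch library 4 and 58.5 to 63.0 CPM in the others. TF, which codes transferrin, was 4.97 CPM in stretch library 6 and 2.996 to 3.20 CPM in the others.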

How the results depend on the processing

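No paired analysis was possible because the groups share no replicate numbers. CFB, C1S, C3, CD55, C1R and CFI kept their sign in every alternative run for them. With library totals alone the median of all genes moved by 0.69 on the log2 scale, and relative to the median CFB, C1S and C3 were then at -3.22, -1.84 and -1.27. The number of genes passing, 261 of 11230, was 13 with library totals, 143 with a mean of at least 10 CPM, 1315 with DESeq2, 5303 with voom and library quality weights, and 99 with doxorubicin library 3 alone. Leaving out doxorubicin library 1, 2 or 3 gave 23, 289 or 3736, and leaving out stretch library 4, 5, 6 or 7 gave 40, 16, 12 or 12. Members called, 2 with all libraries, were 1 with library totals, 3 with DESeq2, 6 with quality weights, and 1 to 4 with a library left out. Other complement genes called, 0 with all libraries, were 2 with DESeq2, 12 with quality weights (6 in each direction), and 0 to 6 with a library left out, the 6 without doxorubicin library 3. The 19 other listed genes called became 7 with library totals, 36 with DESeq2, 51 with quality weights, and 8 to 40 with a library left out. The cause of these moves was not tested. The log2 fold changes of C1RL, CFD, CLU and IRF1 turned to 0.053, 0.63, 0.30 and 0.17 with library totals. Those of C1RL, CFD, CLU, SERPINA3 and HIPK3 turned to 0.68, 0.42, 0.41, 0.62 and 0.0029 with doxorubicin library 3 alone. With a library left out CFD ranged from -0.35 to 0.32 (without doxorubicin library 1). Depth limits CD59 and SERPING1, which stayed near the detection level.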

Other observations

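CD55 and CD59 are held on the membrane by a glycosylphosphatidylinositol (GPI) anchor, and genes of anchor synthesis and transfer showed no common direction. Of 23 tested, none passed edgeR's quasi-likelihood test, and the unadjusted p was under 0.05 for 6, near the 23.2% of all tested genes. DESeq2 called 3 of 25, where it called 10% of all genes, and limma-voom called 0. Their median log2 fold change was 0.05, with 11 on the doxorubicin side and 12 on the stretch side. PIGQ, a subunit of the enzyme for the first step, stood at 96.5, 143.5 and 31.6 CPM in doxorubicin and 21.6 to 28.99 CPM in stretch (log2 fold change -1.75, SE 0.44, edgeR adjusted p = 0.0600), and its log2 fold change was -0.23 with doxorubicin library 3 alone. PIGF, which acts in the last steps of synthesis, was also on the doxorubicin side (log2 fold change -1.01, SE 0.38). PIGU, a subunit of the transamidase that attaches the anchor to proteins, and PIGM, a mannosyltransferase, were on the stretch side. Their log2 fold changes were 1.51 (SE 0.49, edgeR adjusted p = 0.112) and 1.37 (SE 0.47, edgeR adjusted p = 0.124). In doxorubicin these rest on 14, 1 and 22 counts of PIGU and on 4, 3 and 14 counts of PIGM.

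Plasma proteins of the liver-type acute phase, of which C3 and CFB are often counted as members, also had no gene past the threshold among 6 tested, with 1 at an unadjusted p under 0.05 and 1 of 10 called by DESeq2, as in 10% of all genes, and their median log2 fold change was 0.82. FGG stood at 5.96, 2.59 and 11.2 CPM in doxorubicin and at 6.94, 63.0, 58.7 and 58.5 CPM in stretch (log2 fold change 2.70, SE 0.72, edgeR adjusted p = 0.0687). CP, which codes ceruloplasmin, and TF were on the stretch side (log2 fold changes 0.72 and 1.12), and SERPINA3, a serpin, had a log2 fold change of -1.09.

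HIPK3 and KIAA1549L, which lie on the same side of CD59, had log2 fold changes of -1.62 (SE 0.49) and -2.05 (SE 0.58) and did not pass (edgeR adjusted p = 0.0939 and 0.0780). Without doxorubicin libraries 1 and 2, HIPK3 was at 0.0029 on that scale.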
